A study of Mus musculus with 8 samples.

Results

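The genes described here are those of the ATP-binding cassette (ABC) superfamily whose symbol on the array is Abca, Abcb, Abcc, Abcd, Abce, Abcf or Abcg followed by a number. They were found by symbol alone, with no use of measured values, and each was read from the probe set that was brightest on average across the 8 arrays. The array named 45 such genes among 18193 named genes, with 92 probe sets between them. Of these, 26 lay above a log2 signal of 5 on at least 2 arrays and were tested, among 12177 genes tested in all.

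ABC proteins couple the binding and hydrolysis of ATP to the movement of lipids, sterols, peptides, metabolites or drugs across a membrane. In tumours the family is known for drug efflux (Abcb1a and Abcb1b, which together encode P-glycoprotein in the mouse, Abcc1 and Abcg2), and in macrophages for the export of cholesterol by Abca1 and Abcg1. The label of transporters does not cover the whole set. Abce1 and Abcf1, Abcf2 and Abcf3 encode ABC proteins without membrane-spanning parts, and Abcc8 and Abcc9 encode regulatory subunits of potassium channels.

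The cells were Lewis lung carcinoma (LLC) and colon26 colon carcinoma cells of the mouse, both stably carrying EGFP driven by the cloned mouse PSF1 promoter. PSF1 is the product of Gins1, a subunit of the GINS complex of the replication fork. Tumours grew under the skin of mice, for 4 weeks (LLC) or 2 weeks (colon26), and were dissociated and sorted by FACS into EGFP-high and EGFP-low cells. The groups were LLC EGFP-high, LLC EGFP-low, colon26 EGFP-high and colon26 EGFP-low, with 2 arrays each, numbered 1 and 2. The labels call the numbered arrays biological replicates. They name neither the host strain nor the number of clones, and do not say whether the arrays came from separate tumours, so p-values describe the spread between these arrays, which may be technical. Line, organ of origin and weeks of growth differ together, so their parts in a difference between the lines cannot be told apart. The labels name no step that removes host cells before the sort, and in sorted cells fewer cells of a type and less RNA per cell cannot be told apart.

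Gins1 followed the sort, at 8.42 and 8.51 in LLC EGFP-high against 7.23 and 7.14 in LLC EGFP-low, and at 8.29 and 8.38 in colon26 EGFP-high against 7.56 and 6.97 in colon26 EGFP-low (log2 signal). Of 10 markers of colon epithelium, Krt19, Cdh1, Vil1, Cldn7 and Lgals4 were under 5 on every array, colon26 included. Epcam, Krt8, Krt18, Krt20 and Cdx2 exceeded 5 on some or all arrays. In colon26 Krt18 was 3.84 to 5.05, Krt8 5.31 to 5.95, Cdx2 5.21 to 5.60 and Epcam 5.99 to 6.43. Of these 5 markers, 3 were called higher in LLC than in colon26 and 1 lower. Krt20 was 11.60 to 12.27 in colon26 and at most 4.06 in LLC. Of 9 markers of lung epithelium, Sftpc, Sftpa1, Nkx2-1, Scgb1a1 and Cdh1 were under 5 on every array, LLC included. Of the other 4, Krt8 (12.36 to 12.80), Krt18 (8.43 to 9.14) and Epcam (6.70 to 7.18) were above 5 on every LLC array and called higher there than in colon26, and Sftpb was 5.14 to 5.82 over all arrays. The arrays numbered 1 had a median 3′ minus 5′ signal of 2.41 to 2.70 over 4 control transcripts, against −0.01 to 0.35 on those numbered 2. For this reason high and low arrays of one line and number were compared as pairs, and LLC and colon26 within a number. Mean log2 signals of the macrophage markers (16 genes) were 5.22 and 5.35 in LLC EGFP-high against 6.34 and 6.50 in LLC EGFP-low. They were 5.62 and 5.47 in colon26 EGFP-high against 8.26 and 7.84 in colon26 EGFP-low.

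The promoters of 3 members are shown because the results turn on these genes: Abca1 and Abcb1a, which fell in EGFP-high cells of both lines, and Abcb1b, the next gene to Abcb1a on the chromosome, which was not called in that comparison. Each comes from the 250 bases before the start listed in the RefSeq promoter table (GRCm38.p6), 5′ to 3′ on the gene's strand. For Abca1 the RefSeq gene span reaches 93 bases upstream of that start, and only the 157 bases outside the span are printed. Capitals mark an E-box (CACGTG) in Abca1. In Abcb1b they mark CCAAT boxes (CCAAT, 1 on each strand) and a GC box (GGGCGG).
Abca1, chr4:53159989-53160145, - strand: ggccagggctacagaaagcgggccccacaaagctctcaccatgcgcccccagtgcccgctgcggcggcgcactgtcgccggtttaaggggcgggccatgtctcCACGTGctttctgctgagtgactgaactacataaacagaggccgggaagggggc
Abcb1a, chr5:8566841-8567090, + strand: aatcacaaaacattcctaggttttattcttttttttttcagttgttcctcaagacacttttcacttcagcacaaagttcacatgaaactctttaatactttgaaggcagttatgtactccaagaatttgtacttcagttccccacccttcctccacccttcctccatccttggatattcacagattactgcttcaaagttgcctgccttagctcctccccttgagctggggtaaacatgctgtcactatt
Abcb1b, chr5:8797897-8798146, + strand: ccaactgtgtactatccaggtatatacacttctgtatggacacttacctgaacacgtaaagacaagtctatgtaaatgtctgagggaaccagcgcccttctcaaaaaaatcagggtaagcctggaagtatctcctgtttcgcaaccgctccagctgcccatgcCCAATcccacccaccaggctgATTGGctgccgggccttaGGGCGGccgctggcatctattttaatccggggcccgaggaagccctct
The full 250 bases were searched on both strands, and no match overlapped another. A fixed form of the direct repeat known to bind liver X receptors (LXR) was searched, TGACC and GTAACC with 4 bases between. It matched once in Abca1 as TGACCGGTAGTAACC. The match began 67 bases before the start of the promoter table, within the 93 bases that the gene span covers. This form was found in 12 of 32851 promoters of 250 bases (0.0365%). E-boxes were found in 6.02% of them, CCAAT boxes in 33.8% and GC boxes in 32.7%. The form searched carries the spelling of the Abca1 repeat itself, so the match in Abca1 is no test. The share of 0.0365% tells only how rare that spelling is. Other spellings of the LXR repeat were not searched, so neither the match nor this share describes LXR sites in general. The Abca1 window also held 2 GC boxes, 163 and 97 bases before the start. The Abcb1a window held none of the 4 motifs, which says only that these letters are not in it. A match describes the sequence and does not show binding.

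The comparison of EGFP-high with EGFP-low cells asks which ABC genes go with activity of the PSF1 promoter. In both lines Abca1 and Abcb1a fell in EGFP-high cells, Abcg1 fell in LLC and Abcc9 fell in colon26, and no tested member rose. In LLC 3 of 26 members were called (11.5%), where 11.0% of all genes were. In colon26 it was 3 of 26, where 3.77% of all genes were called, and for the lines combined 3 of 26, where 13.0% were. The LLC change minus the colon26 change gave 0 calls among the members, where 1.41% of all genes were called. At an unadjusted p under 0.05 in limma it gave 4 of 26 members, beside 1731 of 12177 genes. The members called in LLC and over both lines were therefore about as frequent as called genes in general. By direction, 6.04% of all genes fell in LLC, 1.58% in colon26 and 5.57% with the lines combined, and 4.98%, 2.18% and 7.47% rose, against 0 members in each. The median change of the tested members was 0.06 in LLC, −0.04 in colon26 and 0.04 for the lines combined, beside 0.04, 0.08 and 0.04 for all genes. Without pairing, limma called 0 members in each line and over both lines, with 2, 4 and 4 at an unadjusted p under 0.05.

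**Figure D1:**
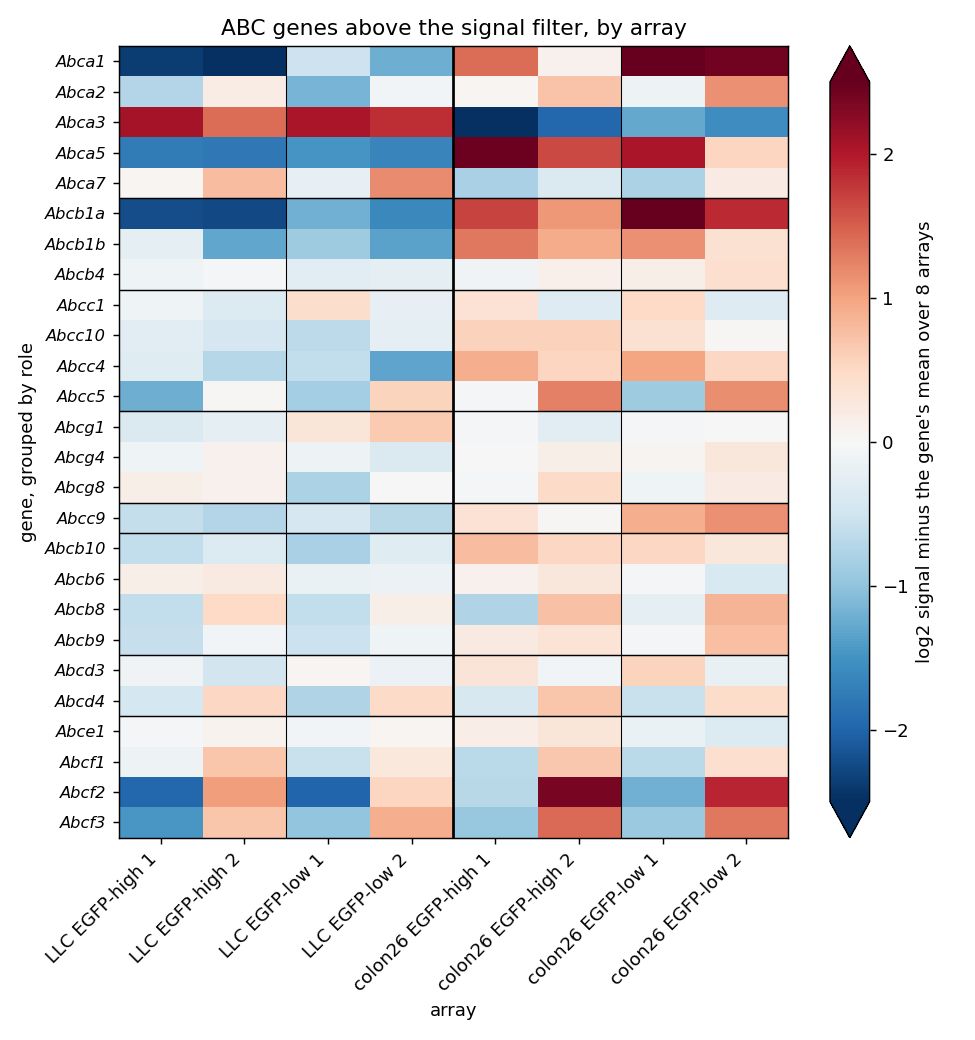
Log2 signal of each of the 26 tested ABC genes on each of the 8 arrays, minus the gene's own mean over the arrays (colour), with genes grouped by role between the horizontal lines. Abca1 and Abcb1a are lowest in LLC EGFP-high, Abca3 is higher and Abca5 lower in LLC, and Abcf2 and Abcf3 alternate with the array number.

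Abca1, which loads cholesterol and phospholipid onto apolipoprotein A-I, had the largest change of any tested member in both lines. Its log2 signal was 4.94 and 4.38 in LLC EGFP-high against 6.79 and 6.09 in LLC EGFP-low. In colon26 it was 8.71 and 7.42 in EGFP-high against 10.44 and 9.73 in EGFP-low. The EGFP-high array was the lower one in each of the 4 pairs, with pair differences of −1.85 and −1.71 in LLC and −1.73 and −2.31 in colon26, and within each line the groups did not overlap. The change was −1.78 in LLC (SE 0.20, limma adjusted p = 0.00053), which is 3.44-fold lower. It was −2.02 in colon26 (SE 0.20, limma adjusted p = 0.00034), which is 4.06-fold lower. LLC EGFP-high lay under 5, where background limits a fall, so the LLC fold is not exact. The call ended in colon26 without the pair numbered 2 (−1.73, limma adjusted p = 0.065) and in LLC with the mean of the gene's 3 probe sets (−0.68, limma adjusted p = 0.092), of which the other 2 had means under 5.

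Abcg1, which passes cholesterol on to high-density lipoprotein and works beside Abca1 in macrophages, had 5.01 and 5.13 in LLC EGFP-high against 5.67 and 6.04 in LLC EGFP-low. In colon26 it had 5.32 and 5.10 in EGFP-high against 5.34 and 5.39 in EGFP-low. The groups did not overlap in either line, but lay close together in colon26. It fell in LLC (−0.78, SE 0.18, limma adjusted p = 0.022), and its value in colon26 was −0.15 (SE 0.18, limma adjusted p = 0.70). The difference between these changes was not called (−0.63, limma adjusted p = 0.31). The LLC call ended without either LLC pair (adjusted p = 0.14 without the pair numbered 1 and 0.57 without the pair numbered 2). Over both lines Abcg1 fell by 0.47 (limma adjusted p = 0.039), and this call held in only 1 of 14 other settings.

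Macrophage markers fell in the same comparisons, with 10 of 15 tested called lower in LLC (list median −1.12) and 14 of 15 in colon26 (−2.86). Among them Csf1r, the receptor for the macrophage growth factor, had 6.66 and 6.18 in LLC EGFP-high against 8.30 and 7.77 in LLC EGFP-low. It had 7.18 and 5.98 in colon26 EGFP-high against 10.28 and 8.94 in colon26 EGFP-low. Fibroblast markers fell too, 10 of 12 in LLC and 7 of 12 in colon26, with medians of −2.06 and −1.21. The part of these cells in the falls of Abca1 and Abcg1 was not tested.

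**Figure D2:**
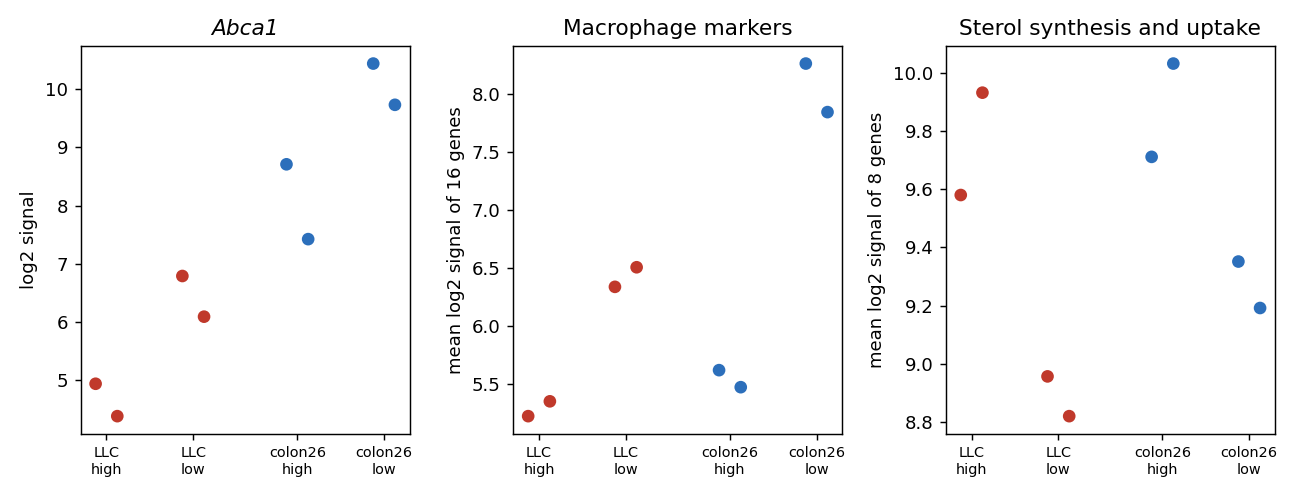
Log2 signal on each array (points, number 1 left and 2 right; red LLC, blue colon26) of Abca1, of the mean of 16 macrophage markers and of the mean of 8 genes of sterol synthesis and uptake, by group. Abca1 and the macrophage markers are lower and the sterol genes higher in EGFP-high than in EGFP-low cells of each line.

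Genes that make and take up sterols were more often called higher in EGFP-high cells. Over both lines 7 of 8 tested rose and 0 fell (list median 0.71). Among them were Idi1 (1.00) and Fdps (0.98) of the isoprenoid steps, Sqle (0.73), which makes squalene epoxide, and Dhcr7 (0.64), which completes cholesterol. In LLC 6 of 8 rose (median 0.86), and in colon26 0 of 8 were called (median 0.56). Their mean log2 signal was 9.58 and 9.93 in LLC EGFP-high against 8.96 and 8.82 in LLC EGFP-low. It was 9.71 and 10.03 in colon26 EGFP-high against 9.35 and 9.19 in colon26 EGFP-low, so the groups of a line did not overlap. Of 11 genes of cholesterol efflux and its receptors, 2 fell over both lines and 0 rose (median −0.08): Pltp (−0.75), a phospholipid transfer protein, and Mylip (−0.54), an LXR target that removes the LDL receptor. The LXR gene Nr1h3 was at −0.01 (limma adjusted p = 0.98).

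Abcb1a, one of the 2 mouse genes of the drug efflux pump P-glycoprotein, had 3.91 and 3.88 in LLC EGFP-high against 4.93 and 4.51 in LLC EGFP-low. In colon26 it had 7.81 and 7.21 in EGFP-high against 8.80 and 8.003 in EGFP-low. All 4 LLC arrays lay under 5, so the gene entered the test through colon26 alone and the LLC values are close to background. The change was −0.83 in LLC (SE 0.19, limma adjusted p = 0.019) and −0.89 in colon26 (SE 0.19, limma adjusted p = 0.026). Its other probe set gave −0.63 and −0.55. The LLC call ended without any 1 of the 4 pairs (adjusted p from 0.054 to 0.42), and the colon26 call without either colon26 pair (0.11 and 0.29). Over both lines the change was −0.86 (SE 0.13, limma adjusted p = 0.0020), and it stayed called without any 1 of the 4 pairs (changes of −0.95 to −0.76, limma adjusted p from 0.0020 to 0.048). Of endothelial markers, a cell type where P-glycoprotein is also known, 5 of 9 fell over both lines (median −0.62), where 5.57% of all genes fell. In LLC 0 of 9 of these markers were called lower (median −0.34), and in colon26 3 of 9 (median −0.68). Their part was not tested.

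Abcb1b, the other P-glycoprotein gene, had 7.66 and 6.61 in LLC EGFP-high against 7.03 and 6.56 in LLC EGFP-low. In colon26 it had 9.24 and 8.83 in EGFP-high against 9.06 and 8.29 in EGFP-low. The EGFP-high array was the higher one in all 4 pairs, but the groups overlapped and the change was not called (0.34 in LLC, adjusted p = 0.35, and 0.36 in colon26, 0.41, SE 0.21 each, limma). Abcb1a, Abcb1b and Abcb4 lie next to each other on chromosome 5 in GRCm38.p6. Abcb4, which moves phosphatidylcholine into bile, was at 0.17 in LLC and −0.26 in colon26 (limma adjusted p = 0.63 and 0.49). The 3 genes are close in sequence, so a probe set of one may also read another.

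**Figure D3:**
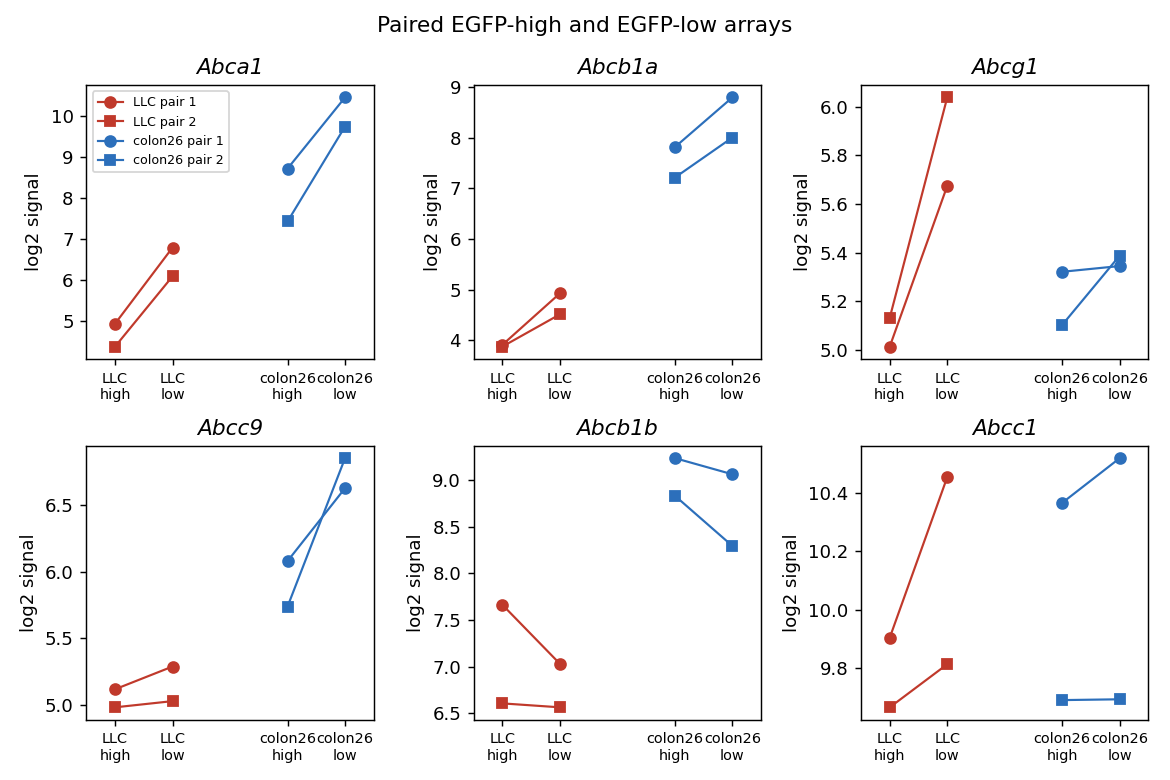
Log2 signal of 6 ABC genes on the EGFP-high (left) and EGFP-low (right) array of each pair, joined by a line (red LLC, blue colon26; circles pair 1, squares pair 2). Abca1 and Abcb1a are lower in EGFP-high cells in all 4 pairs, and Abcb1b is higher in all 4.

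The other drug efflux genes gave no call in the sort. Abcc1, a pump for glutathione conjugates, had 9.90 and 9.67 in LLC EGFP-high against 10.45 and 9.81 in LLC EGFP-low. In colon26 it had 10.37 and 9.69 in EGFP-high against 10.52 and 9.69 in EGFP-low. The groups overlapped in both lines, and the change was −0.35 in LLC and −0.08 in colon26 (SE 0.19 each, limma adjusted p = 0.29 and 0.86). Abcc4, which exports cyclic nucleotides and prostaglandins, was at 0.46 and −0.03, Abcc5 at −0.45 and 0.47 and Abcc10 at 0.10 and 0.38 in LLC and colon26.

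Abcg2, the pump whose dye efflux marks side population cells, was above 5 on 1 array and was not tested. It had 4.06 and 3.98 in LLC EGFP-high against 3.99 and 4.25 in LLC EGFP-low. In colon26 it had 3.69 and 3.62 in EGFP-high against 5.35 and 4.35 in EGFP-low, so its only signal above 5 was in EGFP-low cells. With no filter it was called lower in colon26 (−1.19, limma adjusted p = 0.049) and not in LLC (−0.11, 0.90), and the difference between the lines was not called (1.09, 0.29).

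Abcc9, the sulphonylurea receptor subunit of potassium channels in vascular mural cells, had 6.08 and 5.74 in colon26 EGFP-high against 6.63 and 6.85 in colon26 EGFP-low. In LLC it had 5.12 and 4.98 in EGFP-high against 5.29 and 5.03 in EGFP-low. It fell in colon26 (−0.83, SE 0.20, limma adjusted p = 0.046) and was at −0.11 in LLC (SE 0.20, limma adjusted p = 0.80). The colon26 call ended under 7 of 12 other settings, among them quantile normalization (−0.88, adjusted p = 0.12) and leaving out the pair numbered 2 (−0.55, 0.52). A second probe set had 5.14 and 4.21 in colon26 EGFP-high against 7.08 and 6.20 in colon26 EGFP-low. That probe set fell further (−1.97, limma adjusted p = 0.00033, each probe set as its own unit), with a called difference between the lines (1.61, adjusted p = 0.026). Kcnj8, the pore that pairs with Abcc9, also fell in colon26 (−1.25, limma adjusted p = 0.003) and was at −0.25 in LLC (0.43). Of 7 pericyte markers tested, which include Kcnj8, 2 fell in colon26 and 1 in LLC (medians −0.70 and 0.06), and their part was not tested.

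Members of organelles and of translation were not called in the sort. Of the mitochondrial and lysosomal genes of subfamily B, Abcb6 was at 0.34 in LLC and 0.42 in colon26, Abcb8 at 0.18 and −0.30, Abcb9 at −0.01 and −0.08 and Abcb10 at 0.07 and 0.25. Abcd3, a peroxisomal importer of fatty acyl groups, was at −0.22 and −0.05, and Abcd4, of lysosomal cobalamin transport, at 0.16 and 0.21. Abce1, which splits ribosomes after termination, had 10.80 and 10.95 in colon26 EGFP-high against 10.48 and 10.30 in colon26 EGFP-low. In LLC it had 10.60 and 10.74 in EGFP-high against 10.57 and 10.68 in EGFP-low. The groups did not overlap in colon26, but the change was not called (0.49, limma adjusted p = 0.22). The changes of the other members not called lay between −0.45 and 0.51 in LLC (23 members) and between −0.86 and 0.76 in colon26 (23 members). The ends of the colon26 range are Abca3 and Abca5, at adjusted p = 0.083 and 0.082, and both were called after median centring (−0.78 and 0.84, limma adjusted p = 0.043 and 0.020). In all 4 pairs 7 members were higher in EGFP-high cells (26.9%) and 5 lower (19.2%), beside 21.4% and 9.24% of all genes.

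The companion lists over both lines were read against 7.47% rising and 5.57% falling in all genes. Iron-sulphur and heme synthesis, in which Abcb6 and Abcb10 are known to act, had 1 of 12 higher, Glrx5 (0.48), a carrier of iron-sulphur clusters. Class I peptide loading had 1 of 9 lower, Tapbp (−0.61, with −1.09 in LLC and −0.13 in colon26), which bridges class I molecules to the peptide pump. That pump is made of the ABC proteins Tap1 (−0.16) and Tap2 (−0.23), neither called over both lines, while Tap2 fell in LLC (−0.70, limma adjusted p = 0.046). Of glutathione and Nrf2 genes 1 of 11 fell, the heme oxygenase gene Hmox1 (−1.35). Its change was −2.47 in LLC (limma adjusted p = 0.00024) and −0.24 in colon26 (0.63), with a called difference between the lines (−2.23, 0.013). Of the drug-sensing receptors only Ahr passed the signal filter, and it fell (−1.34), by 2.77 in LLC with 0.09 in colon26. The 8 peroxisomal genes had 0 called, with Hsd17b4 at 0.07 and Scp2 at −0.09. The 8 genes of a translation list had 0 called, with the initiation factor gene Eif2s2 at 0.23 and the termination factor gene Etf1 at 0.25. That list holds genes of termination and recycling and also others, such as the initiation factor genes Eif2s2 and Eif5b.

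The comparison of LLC with colon26 asks how the ABC genes differ between the tumour lines. Lower expression in LLC was the more frequent direction. In limma on values averaged over the sorts, 12 of 26 members were lower in LLC (46.2%), beside 28.2% of all genes, and 2 were higher (7.69%), beside 21.8%. In all 14 were called (53.8%), where 50.0% of all genes were, so the number called was near that of genes in general. The median difference was −0.37 for the members and −0.08 for all genes. Median centring moved the median of all genes to 0.07 and turned the split of all genes to 3336 higher and 2640 lower, as against 2658 and 3436, while the members stayed at 2 and 12. Without pairing 4 members were called, Abca1, Abca3, Abca5 and Abcb1a, and of all 12177 genes 330 were higher and 482 lower. In 9 members all 4 LLC arrays lay below all 4 colon26 arrays (34.6%, beside 19.9% of all genes), and in 1 they lay above (3.85%, beside 13.3%). Abca5 and Abcb1a were above 5 on no LLC array and so passed the filter through colon26, the line where they were high. Both are among the 12 and the 9 lower in LLC, a direction that the filter favours for them.

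**Figure D4:**
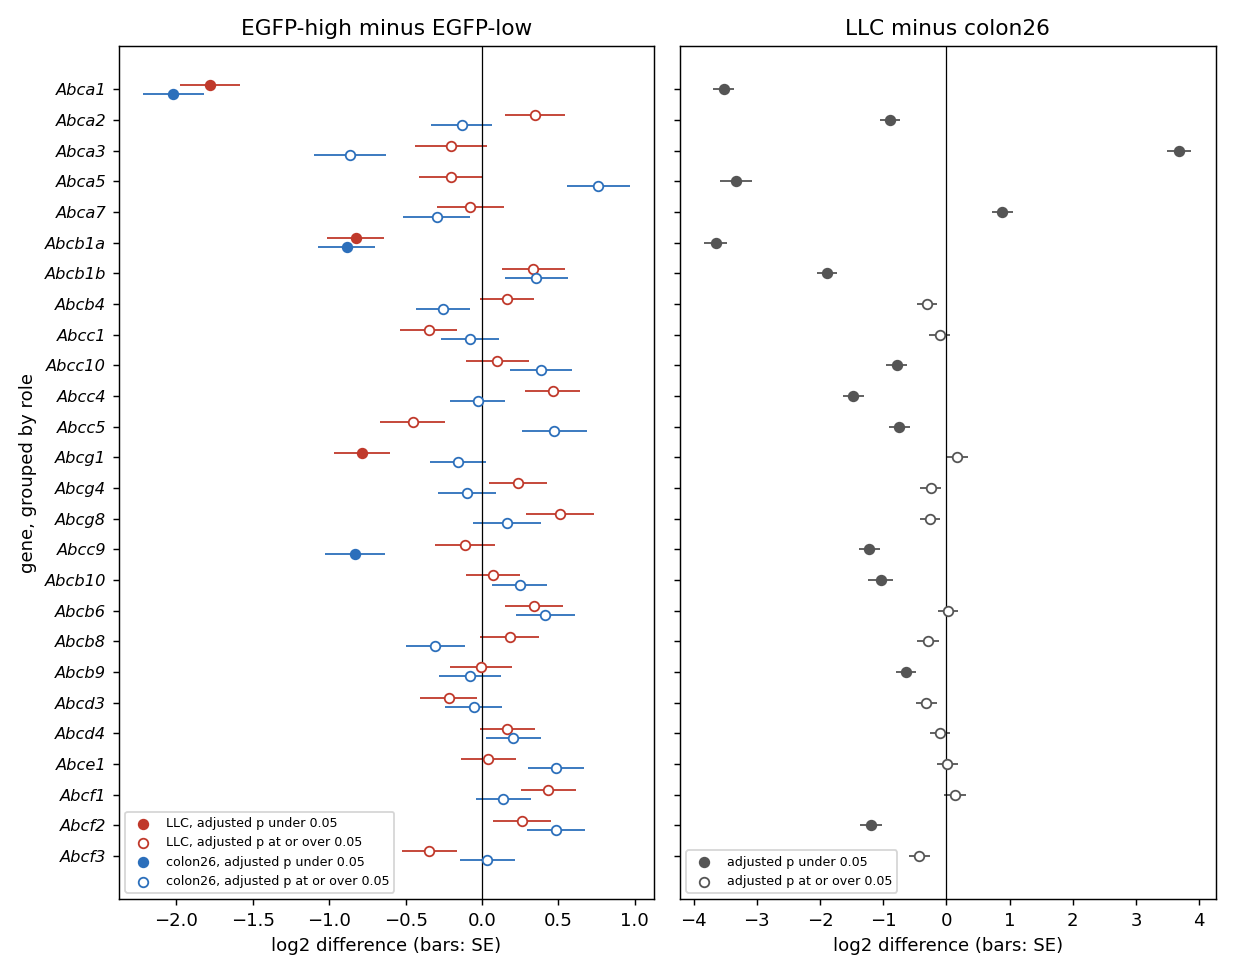
Log2 differences of the 26 tested ABC genes (points, bars SE; filled where limma's adjusted p was under 0.05), EGFP-high minus EGFP-low in LLC (red) and colon26 (blue) on the left, and LLC minus colon26 on the right. Abca1 and Abcb1a are the members called in both lines on the left, and Abca3 and Abca7 are the members called higher in LLC on the right.

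Abca3, which fills the lamellar bodies of lung alveolar cells with surfactant lipid, had 8.75, 8.06, 8.71 and 8.51 on the LLC arrays against 4.09, 4.70, 5.39 and 5.12 on the colon26 arrays (EGFP-high first). The lines did not overlap. The difference was 3.68 (SE 0.19, limma adjusted p = 5.0e-06), and colon26 EGFP-high lay under 5, so its size is not exact. A second probe set gave 1.54, and the remaining one, under 5 throughout, gave −0.13. Abca7, a phospholipid exporter related to Abca1, was also higher in LLC (0.89, SE 0.17, limma adjusted p = 0.0040), although its arrays overlapped and the call ended in EGFP-low arrays alone (0.78, 0.051).

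Abca5, a lipid transporter of lysosomes and late endosomes, had 3.50, 3.47, 3.77 and 3.61 on the LLC arrays against 7.71, 6.90, 7.29 and 5.79 on the colon26 arrays. The difference was −3.33 (SE 0.25, limma adjusted p = 3.4e-05), with LLC at background and the filter passed through colon26 only. Its neighbours on chromosome 11, Abca6, Abca8a, Abca8b and Abca9, were under 5 on every array. Abca1 was lower in LLC by 3.53 (SE 0.17, limma adjusted p = 3.4e-06), and all 4 LLC arrays lay below all 4 colon26 arrays. Macrophage markers were lower in LLC as well, 11 of 15 (median −0.87), and their part was not tested. The genes of cholesterol efflux and its receptors went both ways, with 5 of 11 lower in LLC and 2 higher (median −0.41). Among them Mylip (−2.71) and the receptor partner Rxra (−1.22) were lower, and Pltp (1.37) and Nr1h3 (0.81) were higher. Abca2, a lysosomal lipid transporter of neural tissue, was at −0.89 (limma adjusted p = 0.0028), with overlapping arrays.

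Both P-glycoprotein genes were lower in LLC. Abcb1a differed by −3.65 (SE 0.18, limma adjusted p = 3.5e-06) and Abcb1b by −1.89 (SE 0.16, limma adjusted p = 6.8e-05), and neither overlapped between the lines. The second probe set of Abcb1a gave −3.28, while LLC values of Abcb1a lay at background. Among the conjugate pumps, Abcc4 had 8.32, 7.90, 7.99 and 7.30 in LLC against 9.53, 9.14, 9.59 and 9.13 in colon26 (−1.47, limma adjusted p = 2.6e-04). Abcc10 (−0.79) and Abcc5 (−0.74) were lower in LLC with adjusted p = 0.0067 and 0.0087 in limma, and 8 of the other 9 probe sets of Abcc5 had the same sign. In EGFP-low arrays alone neither was called (Abcc10 −0.64, limma adjusted p = 0.12, and Abcc5 −0.28, 0.46), while in EGFP-high arrays alone Abcc5 differed by −1.21 (0.0032). Abcc1 was at −0.11 (limma adjusted p = 0.62) on the probe set shown, but its mean over 2 probe sets was called lower in LLC (−0.67, adjusted p = 0.015), the other probe set giving −1.24.

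Abcc9 was lower in LLC by 1.22 (limma adjusted p = 6.9e-04). Kcnj11, another pore subunit of these channels, was higher in LLC by 2.25. Abcb10, a mitochondrial transporter needed for heme synthesis in red cell precursors, was lower in LLC on 1 probe set (−1.04, limma adjusted p = 0.0038). A second gave 0.34, so the direction for Abcb10 rests on the probe set, and the mean of its probe sets was not called (−0.39, limma adjusted p = 0.062). Abcb9, a lysosomal peptide transporter, was at −0.64 (limma adjusted p = 0.012), and was not called in EGFP-low arrays alone (−0.68, 0.076). Of the translation genes Abcf2 was called lower in LLC (−1.19, limma adjusted p = 9.8e-04), with overlapping arrays. Its other probe set gave −0.28, and the mean of its probe sets −0.74. The 12 members not called, which include Abce1 (0.02) and Abcf1 (0.13), lay between −0.43 and 0.18.

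The array number shifted some members more than either comparison. Abcf2 was higher on the array numbered 2 than on that numbered 1 by 2.52 to 3.10 in the 4 groups, and its values were 5.60, 5.58, 6.87 and 6.37 on the arrays numbered 1 and 8.60, 8.10, 9.93 and 9.47 on those numbered 2. Abcf3 was higher by 1.91 to 2.36 and Abcc5 by 1.24 to 2.05. Abcb8, Abcd4, Abcf1, Abca2, Abca7, Abcb9 and Abcb4 were higher on number 2 in every group as well, while Abca1 (differences of −1.29 to −0.56), Abca5, Abcb1a, Abcb1b, Abcc1, Abcc4 and Abcd3 were lower. The number goes with the 3′ minus 5′ difference of the control transcripts given above. These genes can be compared within a number only.

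**Figure D5:**
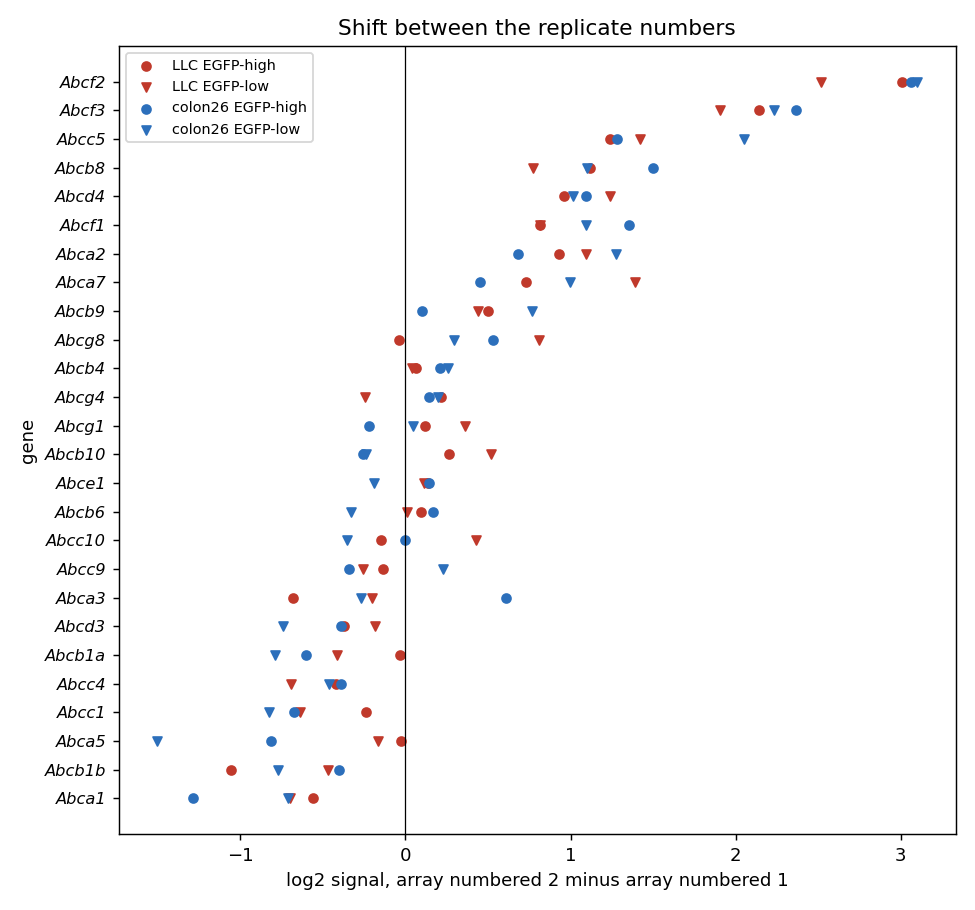
Log2 signal on the array numbered 2 minus that on the array numbered 1, for each of the 26 tested ABC genes in each of the 4 groups (red LLC, blue colon26; circles EGFP-high, triangles pointing down EGFP-low). Abcf2 and Abcf3 are higher on number 2 in all 4 groups, and Abca1 is lower in all 4.

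The 19 members not tested were 14 that were under 5 on every array and Abca4, Abcc3, Abcc8, Abcd2 and Abcg2, which were above it on 1 array each. The 14 include the sterol exporter Abcg5, whose partner Abcg8 was tested, the bile salt pump Abcb11 and the organic anion pump Abcc2. Their highest signals ran from 3.78 (Abca14) to 4.90 (Abcc6). Abcd2, a peroxisomal importer, reached 5.47 in colon26 EGFP-high. The signals of these genes cannot be told from background here, which does not show that they are absent. With no filter 27 of all 45 members, tested ones included, differed between the lines in limma, 4 higher and 23 lower in LLC. Of all 18193 genes 3061 were higher and 7038 lower in that fit, so such calls were common among genes in general.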

How the data were processed

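Biotinylated cRNA from Trizol-extracted RNA of sorted cells was read on Affymetrix arrays with 1 colour, per the labels. The deposited table holds log2 values of 45101 probe sets on 8 arrays, which the authors made with RMA according to the submitters' processing notes. No version or options of RMA were stated in what was used here. Descriptions of the colon26 samples name LLC; their titles, source and cell line fields were followed. The number of arrays limits the precision.

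Probe sets with 1 gene symbol in the platform annotation (34945) were used, and the symbols of all 45 members matched RefSeq by Entrez ID. Promoters were listed for 35 members. limma 3.58.1 in R 4.3.3 was fitted to all 12177 genes, with Benjamini-Hochberg adjustment over them. The sort was fitted with each line and number as a fixed block (2 residual degrees of freedom, prior 8.25). LLC and colon26 were compared on 4 values averaged over the sorts with the number as block (1 residual degree of freedom, prior 6.57), so most of that test's spread is borrowed from other genes. Deviations from group means of arrays of one number correlated across genes at 0.887 between the sorts of LLC, 0.838 between those of colon26, 0.838 between EGFP-high arrays of the lines and 0.74 between EGFP-low arrays, so the numbers were taken as pairs. The scripts were tested on simulated data. Members and lists (8 role groups, 10 companion lists, 10 of cell type markers) were chosen with earlier results of these data known. Named were members called in any comparison, Abcb1a, Abcb1b, Abcc1 and Abcg2, and up to 4 called genes of a companion list; other members are given by ranges or, like Nr1h3, Rxra, Krt20, Tap1 and Kcnj11, as examples chosen after their values were seen. Markers of T and NK cells (0 of 3), B cells (0 of 2), neutrophils (2 of 3 lower) and adipocytes (1 of 1 lower) were also counted over both lines, as were fibroblast (12 of 12 lower), macrophage (13 of 15), endothelial (5 of 9), pericyte (3 of 7), colon (0 of 5) and lung epithelium (0 of 4) markers. Python 3.11.15 and matplotlib 3.10.9 drew the plots.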

Additional observations from a re-analysis of the deposited data

Results flagged for a closer look

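In 5 tested members both LLC pairs moved one way and both colon26 pairs the other. The share of all genes that did so was not counted, so this number is not a result about the family. The difference of the changes, LLC minus colon26, was −0.96 for Abca5, 0.42 for Abcb4, 0.49 for Abcb8, −0.93 for Abcc5 and 0.34 for Abcg4. The limma test of the difference called none of the 5 (adjusted p = 0.18, 0.47, 0.45, 0.21 and 0.60). Abca5 had changes of −0.27 and −0.13 in the LLC pairs, at background, against 0.42 and 1.11 in the colon26 pairs. Abcc5 had −0.36 and −0.54 in the LLC pairs against 0.86 and 0.09 in the colon26 pairs. Its 5 other probe sets with means above 5 were also read as mean changes in LLC and colon26. They gave 0.33 and 0.08, −0.19 and −0.16, −0.05 and −0.09, −0.18 and −0.03, and −0.14 and 0.27. Only the last of them moved in opposite directions. The other probe set of Abca5, with a mean under 5, gave 0.20 in LLC and −0.11 in colon26.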

How the results depend on the processing

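The count of members called in the sort, 3 in each line and over both, depended on pairing and on single pairs. With no replicate block it was 0 in LLC, 0 in colon26 and 0 combined, where 0, 3 and 7 of all genes fell and 0 rose. In LLC it was 1 with the mean of probe sets and 1 to 2 leaving out a pair. In colon26 it was 5 after median centring, 1 with a block by number shared between the lines, and 0 to 4 leaving out a pair. Over both lines it was 5 with every probe set, 2 to 3 leaving out a pair, and 0 and 1 on the arrays numbered 1 only and 2 only, settings chosen after the data were seen (1 residual degree of freedom). The difference of the changes between the lines had 0 members called, and 1 with every probe set, that of Abcc9. At an unadjusted p under 0.05 in limma it had 4 members, beside 1731 of all 12177 genes. Between the lines 14 members were called in the paired fit, 4 with no replicate block, 27 with no filter and 22 probe sets with every probe set. Of all genes, 330 were higher and 482 lower in LLC with no replicate block, and 3061 and 7038 with no filter. Of 21773 probe sets, 4212 were higher and 4668 lower. The called value of each member, on the probe set shown or the mean of its probe sets, kept its direction under the alternatives run. Single other probe sets did not all do so (Abcb10 between the lines 0.34, Abca1 in LLC 0.09). The mean of probe sets gave smaller differences between the lines for Abca1 (−2.21), Abca3 (1.70), Abca5 (−2.05), Abcb1b (−1.02) and Abcf2 (−0.74), and smaller changes in colon26 for Abca1 (−1.26) and over both lines for Abca1 (−0.97) and Abcg1 (−0.31). Leaving out a number leaves 1 value a line and no test between the lines. After quantile normalization colon26 had 43 genes higher and 111 lower, after median centring 553 and 243, as against 266 and 193.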
